A study of Mus musculus with 12 samples.

Results

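RNA levels in mouse fibroblasts that made MyoD were compared with those in the same fibroblasts making Myf5. The comparison uses 6 of the 12 arrays of the study, 3 titled MyoD (replicates 3, 4 and 5) and 3 titled Myf5 (replicates 3, 4 and 5). The hrGFP arrays (replicates 3, 4 and 5) serve as the common background level, and the 3 myogenin arrays entered the model that estimates the spread between samples. All samples came from 2C5/7, an adherent cell line derived from embryonic fibroblasts that carries no functional copy of myoD or myf5, which keeps either factor from switching on its own or the other's endogenous gene. MyoD cells had been infected with a retrovirus that makes MyoD from the promoter of the viral LTR and, through an IRES in the same transcript, the green fluorescent protein hrGFP. Myf5 cells had received the same kind of virus for Myf5, and hrGFP cells served as the control without a myogenic factor. In each group GFP-positive cells were sorted without cloning to an estimated purity of 75 to 85% and grown in DMEM with 10% FCS. The labels give no age, and they do not say whether replicates were separate cultures. The p-values below weigh a difference against the spread between arrays of a group, part of which may be technical. If the replicates were not separate cultures, that spread leaves out the variation between cultures.

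MyoD and Myf5 are basic helix-loop-helix transcription factors that commit cells to the skeletal muscle lineage. Both pair with E proteins and bind the short DNA motif called the E-box. In differentiation they act ahead of myogenin and together with MEF2 factors, and the genes they control build the sarcomere, the calcium store and the neuromuscular synapse.

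Each array reports a MAS5 signal for 12422 probe sets, array controls left out, of which 8485 were bright enough to be tested. The median signal per array was between 16.3 and 35.9. Levels below are log2 values of the signal plus 6.3 after quantile normalization, and a difference is the mean level of the MyoD arrays minus that of the Myf5 arrays, so a value of 1 is a doubling. The added constant understates differences of dim probe sets. On the MyoD 5 array the 3' end of the beta-actin control was 25.7 times as bright as its 5' end, and for Gapdh the ratio was 32.4. The hrGFP 5 array had ratios of 37.6 and 33.0, and the other arrays lay between 0.968 and 1.11 for actin and between 0.786 and 1.03 for Gapdh. MyoD 5 correlated with MyoD 3 and MyoD 4 at 0.821 and 0.835 across probe sets, and with hrGFP 5 at 0.958. Each result is therefore also given without MyoD 5 where that changes it.

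**Figure D1:**
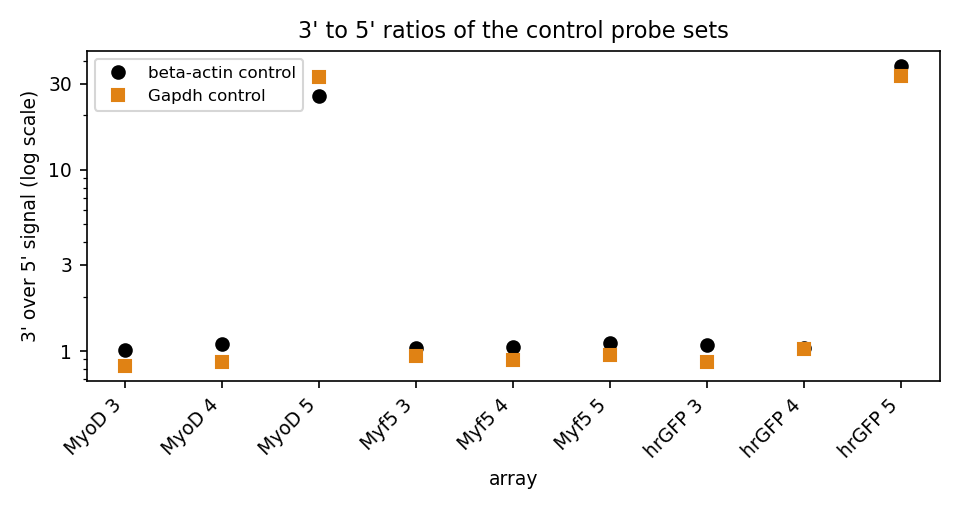
Ratio of the 3' to the 5' probe set of the beta-actin control (circles) and the Gapdh control (squares), on a log scale, for the MyoD, Myf5 and hrGFP arrays. MyoD 5 (25.7 and 32.4) and hrGFP 5 (37.6 and 33.0) stand apart from the other arrays, whose ratios are close to 1.

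MyoD cells had higher RNA levels of muscle structural genes than Myf5 cells, and no gene passed the test in the other direction. By limma with Benjamini-Hochberg adjustment over all tested probe sets, 19 probe sets passed an adjusted p of 0.05 with MyoD higher, which is 0.224% of those tested, and 0 passed with MyoD lower. At an unadjusted p under 0.05 the counts were 194 higher (2.29%) and 120 lower (1.41%). The 19 represent 17 genes, plus 1 probe set that matches several genes and is not named. The 3 MyoD arrays lay above the 3 Myf5 arrays in all 19, which was so for 5.53% of tested probe sets, while 4.23% were separated the other way. Since the arrays of the 19 did not overlap, MyoD was necessarily also higher in each of the 3 same-numbered pairs. Of the 19, 5 were above the filter signal of 15.02 on the 3 MyoD arrays and on no other array: the called probe sets of Tnnt1, Chrna1, Sgca and Smyd1 and the dimmer one of Mylpf. They entered the test only through the group in which they were high, so their p-values below do not carry full weight. Myh3 and the called Atp2a1 probe set had no Myf5 or hrGFP signal above 15.02. Their mean myogenin levels (4.02 and 3.70) were below the filter signal on the log2 scale (4.41). Both thus reached the test with the help of the MyoD arrays, and their p-values carry less weight as well. The names of 7 of the 19 (those of Tnnt1, Actc1, Tnnc2, Hspb2, Sgca, Atp2a1 and the dimmer Mylpf) carry a suffix by which the array maker marks probes shared with other transcripts or an incomplete set.

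The number called rests on single arrays. It was 4 without MyoD 3, 4 without MyoD 4, 6 without Myf5 3, 12 without Myf5 4 and 8 without Myf5 5. Without MyoD 5 it was 29, with 28 higher (0.33%) and 1 lower (0.0118%), and 15 of the 19 were among them. Actc1, Tnnc1, Tnnc2 and Tnnt1 passed whichever array was left out. Those fits kept the filter made on all 12 arrays. The called Tnnt1 probe set met it on the MyoD arrays alone, so a filter remade without a MyoD array would have excluded it. Its passing there carries less weight. Replicates 3 and 4 of these groups shared a chip lot and a hybridization day, and replicate 5 differed from them in lot, day or both. Within the first lot and day, with 2 arrays per group, 20 probe sets were called, 10 of them among the 19; with lot and day as a block 23 were called, 17 of them among the 19. Within the first, the called probe sets of Hspb2, Chrna1, Peg3, Chrng, Erbb3, Sgca, Smyd1 and Atp2a1 and the dimmer one of Mylpf did not pass (adjusted p 0.0603 to 0.502 by limma). With the block, Sgca (0.0609) and Smyd1 (0.117) did not. The second held 1 array per group and gives no test of its own.

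**Figure D2:**
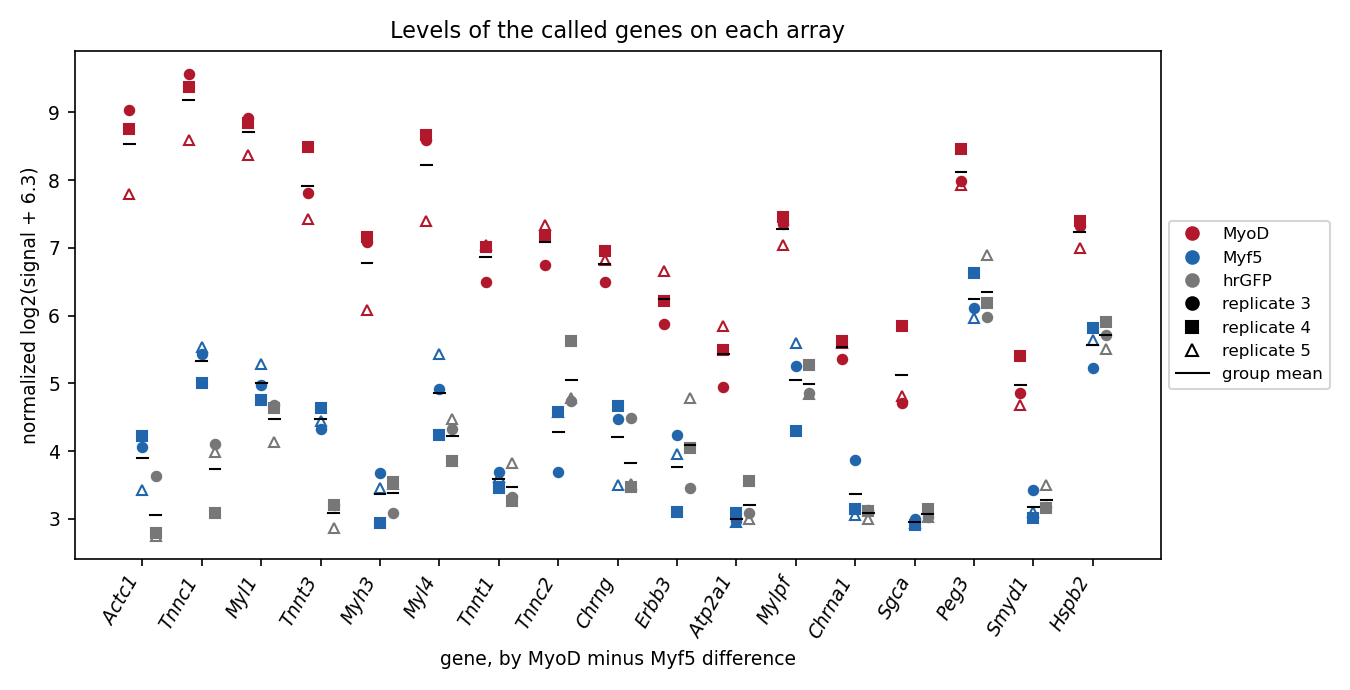
Normalized log2 level of the 17 called genes (1 called probe set each) on each MyoD (red), Myf5 (blue) and hrGFP (grey) array, with the group mean as a bar; open triangles are replicate 5. The MyoD points lie above all Myf5 points of the same gene, and for most genes the Myf5 points lie near the hrGFP points.

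Among the genes for the transduced factors, the probe sets for Myod1 and Myf5 did not separate the groups. Myod1 had deposited signals of 54.1, 52.4 and 41.3 on the MyoD arrays, 42.8, 52.5 and 66.8 on the Myf5 arrays and between 38.4 and 58.6 on the hrGFP arrays. The difference was 0.03 ± 0.27 (SE), with a 95% interval of -0.56 to 0.62. The Myf5 probe set had signals of 45.9, 42.3 and 95.4 on the MyoD arrays, 79.6, 27.4 and 125 on the Myf5 arrays and 77.2, 27.1 and 143 on the hrGFP arrays. Its difference was -0.05 ± 0.37 (SE; 95% interval -0.87 to 0.76), and for both genes the groups overlap. A viral transcript need not contain the stretch of the gene that these probes match, so the values check neither the labels nor the amount of factor made, which was not measured.

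The 2 largest differences among called genes were in the thin filament. It consists of actin and of troponin, the calcium switch of contraction, whose T, C and I subunits anchor it to tropomyosin, bind calcium and block contraction. Actc1, the cardiac alpha-actin that embryonic skeletal muscle also makes, had signals of 459, 345 and 287 on the MyoD arrays, 10.4, 9.15 and 5.79 on the Myf5 arrays and 7.08, 0.49 and 0.49 on the hrGFP arrays. The difference was 4.62 ± 0.50 (SE, n = 3 arrays per group; adjusted p = 0.00285 by limma) and no MyoD array came near a Myf5 array. All Myf5 signals of Actc1 were below the filter signal, so the size of the difference depends on the constant and the scaling (3.99 to 5.45 over the alternatives). A second Actc1 probe set, whose name marks probes shared with other transcripts, gave 1.54 (adjusted p = 0.343 by limma; 1.92 and 0.0473 without MyoD 5).

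Tnnc1, the troponin C of slow and cardiac muscle, had signals of 661, 542 and 539 with MyoD, 39.8, 18.6 and 57.0 with Myf5 and 12.3, 1.71 and 9.71 with hrGFP. It differed by 3.86 ± 0.44 (SE; adjusted p = 0.00285 by limma), with no overlap. Tnnc2, the troponin C of fast muscle, had signals of 91.8, 114 and 195 with MyoD, 6.43, 12.7 and 23.4 with Myf5 and 23.3, 26.5 and 21.9 with hrGFP. Its difference was 2.81 ± 0.32 (SE; adjusted p = 0.00285 by limma), and here the mean of the Myf5 arrays (4.28) was below that of the hrGFP arrays (5.05). Another Tnnc2 probe set was too dim to be tested, with signals of 3.72, 2.00 and 1.84 with MyoD and 2.46, 3.48 and 2.22 with Myf5.

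Of troponin T, a slow and a fast form passed. Tnnt1, of slow muscle, had signals of 76.8, 102 and 153 with MyoD, 6.42, 3.64 and 7.57 with Myf5 and 4.24, 2.48 and 7.90 with hrGFP. The Myf5 signals thus lay in the range of the hrGFP arrays, and the difference of 3.27 ± 0.26 (SE) had the smallest adjusted p of all probe sets (2.39e-04 by limma). The other Tnnt1 probe set, the one with the higher mean, differed by 0.39 (adjusted p = 0.937 by limma), so the 2 probe sets disagree. Tnnt3, of fast muscle, had signals of 191, 285 and 210 with MyoD, 14.0, 13.5 and 20.9 with Myf5 and 3.43, 2.17 and 1.14 with hrGFP, a difference of 3.44 ± 0.46 (SE; adjusted p = 0.00867 by limma). The Tnnt3 groups stand in 3 separate bands, with Myf5 above hrGFP, but Myf5 minus hrGFP (1.38) had an adjusted p of 0.973.

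In 3 further thin-filament genes the groups were separated, and the test was missed with all arrays and passed without MyoD 5. Acta1, the skeletal alpha-actin, had levels of 10.59, 10.43 and 8.99 with MyoD, 7.02, 5.19 and 6.95 with Myf5 and 4.97, 3.20 and 3.25 with hrGFP. The difference was 3.62 ± 0.67 (SE; adjusted p = 0.0633 by limma), and 4.10 (adjusted p = 0.0258) without MyoD 5. Tnni1, the inhibitory subunit of slow muscle, differed by 2.92 ± 0.60 (SE; adjusted p = 0.111), and by 3.57 (0.0122) without MyoD 5. Tnnt2, the troponin T of cardiac and embryonic skeletal muscle, differed by 2.54 ± 0.48 (SE; adjusted p = 0.0651), and by 3.02 (0.00883) without it. In each of these genes MyoD 5 was the lowest MyoD array: the Tnni1 signals were 549, 546 and 181 with MyoD, against 53.8, 33.8 and 61.3 with Myf5 and 41.7, 24.1 and 11.6 with hrGFP.

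In the thick filament, made of the myosin motor and its light chains, Myh3, Myl1, Myl4 and Mylpf were higher with MyoD. Myh3, the embryonic myosin heavy chain, had signals of 116, 112 and 66.4 with MyoD, 6.21, 1.02 and 6.04 with Myf5 and 2.46, 3.99 and 5.21 with hrGFP. The Myf5 and hrGFP arrays overlap (mean levels 3.36 and 3.38), and the difference between MyoD and Myf5 was 3.42 ± 0.44 (SE; adjusted p = 0.00722 by limma). Myl1, the alkali light chain of fast muscle, differed by 3.70 ± 0.51 (SE; adjusted p = 0.011 by limma), with levels of 8.92, 8.84 and 8.37 with MyoD, 4.98, 4.75 and 5.29 with Myf5 and 4.68, 4.64 and 4.13 with hrGFP. Myl4, the alkali light chain of embryonic and atrial muscle, differed by 3.36 ± 0.57 (SE; adjusted p = 0.0318 by limma), while a second Myl4 probe set differed by 0.48 (adjusted p = 0.937). Mylpf, the phosphorylatable light chain of fast muscle, passed on both of its probe sets, with differences of 2.23 and 1.92 (adjusted p = 0.0263 and 0.0168 by limma). Of the other myosin heavy chains tested, Myh4 (0.48), Myh7 (0.28) and Myh8 (-0.92) did not pass (adjusted p of 0.937 to 0.944). A second tested Myh7 probe set, also not called, had signals of 29.3, 9.3 and 25.1 with MyoD and 6.22, 5.03 and 7.4 with Myf5. With hrGFP they were 9.09, 5.32 and 9.64. Mybph, a myosin-binding protein, differed by 1.99 ± 0.60 (SE; adjusted p = 0.789), and by 2.72 (0.033) without MyoD 5. The Mybph signal on MyoD 5 was 25.9, against 140 and 124 on the other MyoD arrays and 12.5 to 24.2 on the Myf5 arrays.

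Over the list of sarcomere and contraction genes, with each gene read on its probe set of highest mean, 25 of 41 genes were tested. Of these 7 were higher (Tnnc1, Myl1, Tnnt3, Myh3, Myl4, Tnnc2 and Mylpf), 0 were lower and 18 did not pass. Myh3 reached the test with the help of its MyoD arrays. Over all tested genes read the same way, 10 of 6277 (0.159%) passed with MyoD higher. The list was chosen with earlier results of these data known, so the shares given here are description only. The median difference of the list was 1.54, against 0.03 over all tested genes, and 17 of the 25 had MyoD arrays above all Myf5 arrays, against 5.56% of all genes; 0 were separated the other way, against 4.13% of all genes. Without MyoD 5 the median was 1.85 and 13 passed. Members that did not pass include Tpm2, the beta-tropomyosin (1.58, adjusted p = 0.28), and Tpm1, the alpha-tropomyosin (-0.18, 95% interval -0.73 to 0.37). Des, which codes for the muscle intermediate filament desmin, differed by 0.45 (95% interval -0.24 to 1.14). Myh8, the perinatal myosin heavy chain, had the lowest difference of the list, with signals of 17.0, 1.21 and 5.84 with MyoD, 8.78, 21.8 and 29.1 with Myf5 and 0.959, 20.1 and 21.8 with hrGFP. Ldb3, a protein of the Z-disc that anchors thin filaments, differed by 1.34 (adjusted p = 0.28), and by 1.69 (0.0258) without MyoD 5.

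**Figure D3:**
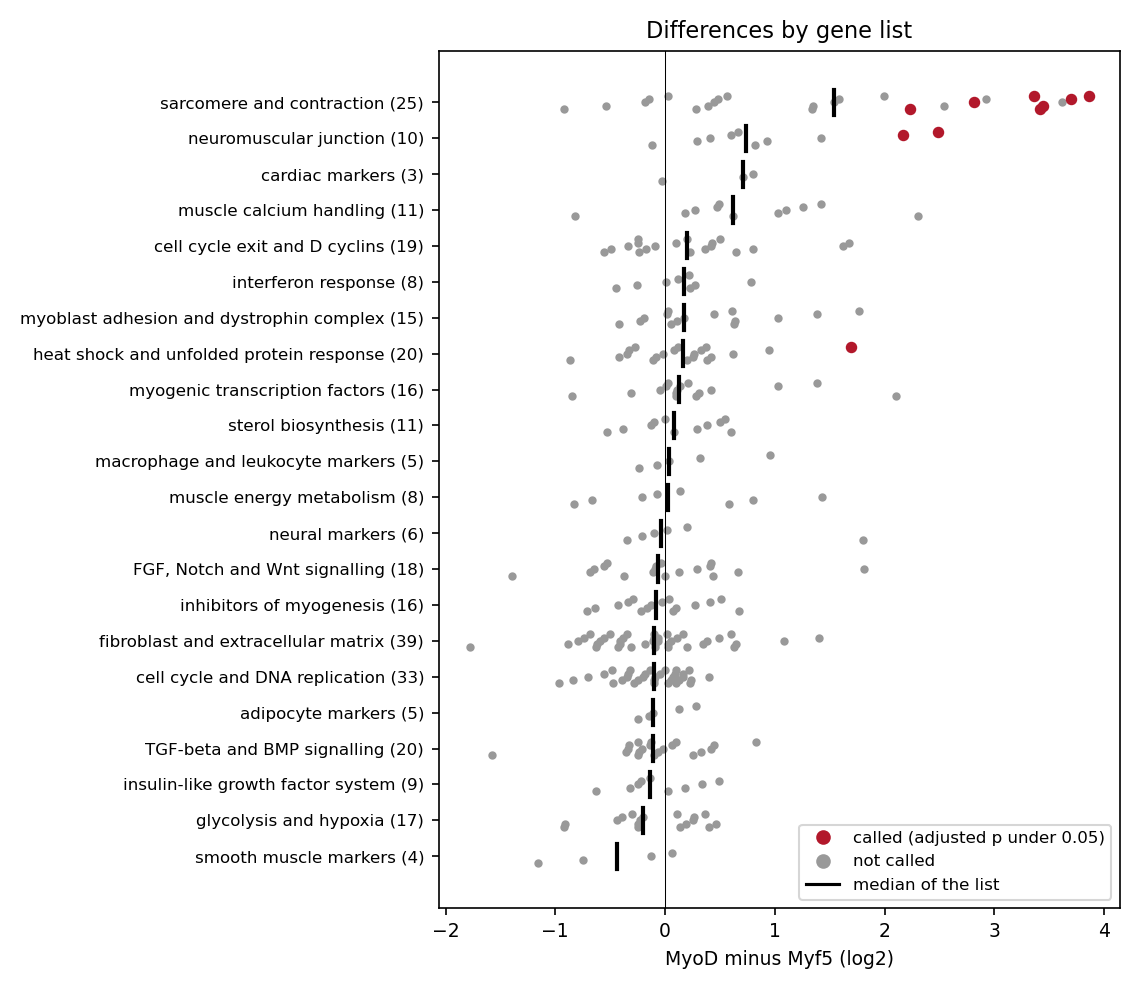
MyoD minus Myf5 differences (log2) of the tested genes of each list of at least 3 tested genes, 1 point per gene on its probe set of highest mean; red points passed the adjusted test, the bar is the median of the list and the number of tested genes is in parentheses. The sarcomere list has a median of 1.54 and the neuromuscular junction list one of 0.74, while the cell cycle and extracellular matrix lists have medians of -0.10.

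Components of the neuromuscular synapse were divided. The acetylcholine receptor of the muscle membrane is built from alpha, beta and delta subunits with a gamma subunit before innervation and an epsilon subunit after it. Chrna1, the alpha subunit, had signals of 32.7, 35.8 and 41.9 with MyoD, 8.27, 1.97 and 2.61 with Myf5 and 2.86, 1.84 and 1.75 with hrGFP. It differed by 2.17 ± 0.32 (SE; adjusted p = 0.0152 by limma) and is one of the genes that entered the test through the MyoD arrays alone. Chrng, the gamma subunit, had signals of 76.5, 97.1 and 125 with MyoD, 16.3, 13.8 and 6.43 with Myf5 and 18.4, 3.59 and 5.14 with hrGFP, a difference of 2.55 ± 0.39 (SE; adjusted p = 0.0168 by limma). Its brighter probe set gave 165, 208 and 8.51 with MyoD and 20.2, 32.9 and 32.3 with Myf5: on MyoD 5 it was below every Myf5 array, and the difference was 1.42 ± 0.82 (SE; adjusted p = 0.937), or 2.67 (0.0212) without MyoD 5.

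Chrnb1, the beta subunit, stood high with both factors. Its signals were 112, 87.5 and 218 with MyoD, 99.9, 38.8 and 109 with Myf5 and 2.59, 1.86 and 6.54 with hrGFP. The MyoD and Myf5 levels were 7.10 ± 0.34 and 6.28 ± 0.31 (SD, n = 3 each), a difference of 0.82 with a 95% interval of 0.17 to 1.47 that did not pass (adjusted p = 0.937 by limma). Chrnd, the delta subunit (0.41), and Chrne, the epsilon subunit (0.66), did not pass either. Erbb3, a receptor subunit for neuregulin, the growth factor that nerve terminals release, had signals of 49.1, 55.9 and 109 with MyoD, 12.7, 1.71 and 11.9 with Myf5 and 5.41, 7.15 and 21.8 with hrGFP. It differed by 2.49 ± 0.38 (SE; adjusted p = 0.0168 by limma), and by 2.27 (0.0517) without MyoD 5. Another Erbb3 probe set was too dim to be tested, with signals of 3.61, 3.29 and 2.31 with MyoD and 3.42, 2.45 and 4.07 with Myf5. On the probe sets of highest mean, 2 of the 10 tested genes of the list were higher (Erbb3 and Chrna1), 0 were lower and 8 did not pass, with a median of 0.74; the share of all genes that passed was 0.159%. Of the 10, 4 had MyoD arrays above all Myf5 arrays, against 5.56% of all genes. Chrna1 is in both counts and in the 10 only because its MyoD arrays were high. The list was also chosen with earlier results of these data known, so the shares are description only.

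Of 11 tested genes for calcium handling in muscle, 0 passed on the probe set of highest mean, with a median of 0.62, and 7 had MyoD arrays above all Myf5 arrays, against 5.56% of all genes. Atp2a1, the calcium pump of the fast sarcoplasmic reticulum, passed on its dimmer probe set, with signals of 23.5, 31.8 and 52.2 with MyoD, 1.44, 1.69 and 1.89 with Myf5 and 2.52, 4.08 and 1.77 with hrGFP. That difference was 2.43 ± 0.43 (SE; adjusted p = 0.0398 by limma), and 2.22 (0.16) without MyoD 5. The MyoD arrays helped this probe set reach the test. The brighter Atp2a1 probe set gave 2.30 ± 0.62 (SE; adjusted p = 0.507). Ryr1, the calcium release channel, had signals of 38.7, 39.9 and 30.9 with MyoD, 8.63, 7.74 and 18.8 with Myf5 and 9.04, 1.77 and 3.63 with hrGFP, and its difference of 1.42 ± 0.37 (SE) had an adjusted p of 0.47. Casq2, a calcium-binding protein of the store, differed by 1.26 (adjusted p = 0.842), and Cacna1s, the voltage sensor of the surface membrane, by 1.10 (0.937).

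Sgca, the alpha-sarcoglycan of the dystrophin complex that links the cytoskeleton to the matrix, had signals of 19.1, 42.2 and 20.8 with MyoD, 1.61, 0.907 and 1.79 with Myf5 and 2.14, 1.95 and 2.05 with hrGFP. The difference was 2.17 ± 0.34 (SE; adjusted p = 0.0172 by limma). This probe set, too, was tested only because of its MyoD arrays, and no Myf5 or hrGFP signal was above 2.14. The brighter Sgca probe set gave 1.38 (adjusted p = 0.937), and 2.27 (0.0271) without MyoD 5, where its signal was 2.54, against 45.1 and 45.7 on the other MyoD arrays. Cdh15, the M-cadherin of myoblasts, differed by 1.77 ± 0.56 (SE; adjusted p = 0.856), and by 2.52 (0.0258) without MyoD 5. Of the 15 tested genes of myoblast adhesion and the dystrophin complex, 0 passed on the probe set of highest mean, with a median of 0.17; without MyoD 5, Cdh15 and Sgca passed and the median was 0.02. Itga7, a laminin receptor of muscle, had levels of 5.98 ± 0.20 with MyoD, 5.37 ± 0.22 with Myf5 and 4.00 ± 0.10 with hrGFP (SD, n = 3 each), and MyoD minus Myf5 (0.61, 95% interval 0.06 to 1.16) did not pass.

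The remaining called genes are not structural. Hspb2, a small heat-shock protein of muscle, had signals of 138, 132 and 146 with MyoD, 33.0, 35.3 and 62.4 with Myf5 and 54.2, 32.7 and 42.0 with hrGFP, a difference of 1.69 ± 0.24 (SE; adjusted p = 0.011 by limma). It was the single gene that passed of 20 tested in the list of heat shock and unfolded protein response, whose median was 0.16. Peg3, an imprinted zinc-finger gene expressed from the paternal copy, had signals of 217, 279 and 321 with MyoD, 70.0, 64.3 and 82.2 with Myf5 and 65.5, 40.2 and 137 with hrGFP. Its difference was 1.89 ± 0.29 (SE; adjusted p = 0.0168 by limma), while 2 other Peg3 probe sets gave 1.14 (adjusted p = 0.0779) and 0.15 (0.953). Smyd1, a muscle-restricted histone methyltransferase, is named here after its values were seen. It had signals of 21.6, 29.6 and 18.4 with MyoD, 4.21, 1.34 and 2.98 with Myf5 and 3.15, 2.01 and 5.04 with hrGFP (1.80 ± 0.30 SE; adjusted p = 0.0296 by limma, and 0.117 with lot and day as a block), and a second Smyd1 probe set differed by -0.31 (adjusted p = 0.941).

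Among myogenic transcription factors, 0 of 16 tested genes passed, with a median of 0.13. Myog, which codes for myogenin, had signals of 443, 409 and 165 with MyoD, 83.0, 46.1 and 111 with Myf5 and 24.2, 33.9 and 53.1 with hrGFP. All MyoD arrays lay above all Myf5 arrays, and the difference was 2.10 ± 0.47 (SE; adjusted p = 0.193 by limma). Without MyoD 5, the lowest of the MyoD arrays, it was 2.68 and passed (adjusted p = 0.00663). Mef2a, one of the MEF2 factors that act beside MyoD, had signals of 123, 136 and 180 with MyoD, 69.9, 30.7 and 81.7 with Myf5 and 70.6, 23.8 and 64.4 with hrGFP (1.38 ± 0.27 SE; adjusted p = 0.085). Mef2c, another of them, differed by 1.03 (adjusted p = 0.937). Myf6, the remaining member of the MyoD family, had signals of at most 20.0 on these arrays and differed by 0.10 ± 0.47 (SE; 95% interval -0.92 to 1.13).

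Set against hrGFP, the called genes given here were higher with MyoD and did not pass with Myf5. These comparisons share the hrGFP arrays and reuse the MyoD and Myf5 arrays by which the genes were called. The outcome is thus partly set by that choice, and the values are only given side by side. Tnnc1 was 5.46 above hrGFP with MyoD and 1.60 above it with Myf5, Actc1 5.47 and 0.84, Myl1 4.22 and 0.52, Tnnt3 4.82 and 1.38, and Myl4 4.01 and 0.64 in the same order. In each of these genes the MyoD value passed (adjusted p of 5.1e-05 to 0.00625 by limma) and the Myf5 value did not (0.973). Over all probe sets 35 (0.412%) passed in MyoD against hrGFP and 1 (0.0118%) in Myf5 against hrGFP. Fewer cells with a muscle program and less muscle RNA per cell cannot be told apart in these bulk samples.

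Genes that accompany the end of division were not separated by the test. Cdkn1a, the cyclin-dependent kinase inhibitor p21, had signals of 249, 219 and 239 with MyoD, 175, 79.1 and 208 with Myf5 and 131, 71.3 and 118 with hrGFP, a difference of 0.80 (95% interval 0.10 to 1.49; adjusted p = 0.937 by limma). Rb1, the retinoblastoma protein, differed by 1.68 (adjusted p = 0.395), with 76.3 on MyoD 5, against 18.8 and 20.0 on the other MyoD arrays. Without MyoD 5 the Rb1 difference was 1.20 and did not pass. Of 19 tested genes of cell cycle exit and D cyclins 0 passed (median 0.20), and of 33 genes of the cell cycle and DNA replication 0 passed (median -0.10). Muscle energy metabolism had 0 of 8 (median 0.03, and 0.49 without MyoD 5). In that list Ckm, the creatine kinase of mature muscle, had signals of 6.37, 5.58 and 20.4 with MyoD, 23.0, 18.9 and 29.3 with Myf5 and 20.6, 12.4 and 20.7 with hrGFP, a difference of -0.83 that did not pass (adjusted p = 0.937). Without MyoD 5 the Ckm difference was -1.19, which did not pass either (adjusted p = 0.176 by limma).

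Fibroblast genes marked all the samples. All 39 genes of the fibroblast and extracellular matrix list found on the array were tested, and their summed signals were 18900 to 27600 with MyoD, 19100 to 33500 with Myf5 and 15400 to 32400 with hrGFP. None of them passed in either direction, and the median difference was -0.10. Among markers of other cell types, 5 of 13 macrophage and leukocyte markers, 2 of 9 endothelial, 2 of 9 epithelial and 5 of 10 adipocyte markers were tested. So were 6 of 14 neural, 3 of 9 cardiac, 4 of 8 smooth muscle and 1 of 11 cartilage and bone markers, and 0 passed in any of these lists. The tested smooth muscle markers were bright in every group. Added up per array, they lay between 1630 and 3000 for MyoD, 1170 and 4730 for Myf5, and 1250 and 4200 for hrGFP. Their median difference was -0.44, and -0.03 without MyoD 5. Ptprc, the pan-leukocyte antigen CD45, was too dim to be tested, at most 2.46 with MyoD, 3.17 with Myf5 and 5.84 with hrGFP. Not all macrophage and leukocyte markers were dim. Cd14 had signals of 99.8, 69.2 and 125 with MyoD, 88.7, 96.5 and 113 with Myf5 and 136, 95.8 and 164 with hrGFP. The tested markers of that list summed to 244 to 292 with MyoD, 238 to 369 with Myf5 and 164 to 258 with hrGFP. Nestin (Nes), counted here as a neural marker and also made by myoblasts, differed by 1.80 (adjusted p = 0.652), and by 2.35 (0.0495) without MyoD 5.

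The 10 largest negative differences among genes whose arrays did not overlap after normalization were those of Snw1, Farsa, Mlf2, Gpaa1, Hnrnpl, Serpinf1, Ddx54, Rhoc, Pomgnt1 and Gnb2, between -2.01 and -1.49, and none passed. MyoD 5 was the lowest MyoD array in 10 of 10, and also in 8 of the 10 largest positive differences. Mlf2 had signals of 263, 252 and 4.83 with MyoD, 389, 206 and 467 with Myf5 and 353, 167 and 4.22 with hrGFP, so the low values are those of MyoD 5 and hrGFP 5. The median of the 10 was -1.62, and -0.52 without MyoD 5, when Snw1, Hnrnpl and Serpinf1 kept a difference beyond 1 in size. Snw1, a coactivator that is part of the spliceosome, had signals of 23.7, 14.4 and 1.94 with MyoD, 112, 20.1 and 149 with Myf5 and 26.9, 6.96 and 1.91 with hrGFP (-2.01 ± 0.59 SE; adjusted p = 0.723), and -1.42 without MyoD 5.

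Without MyoD 5, 14 further probe sets passed and 4 of the 19 no longer did. Beside the genes given above, Rtn2, a reticulon of the endoplasmic reticulum, passed with signals of 50.9, 34.1 and 5.41 with MyoD, 3.32, 4.31 and 4.98 with Myf5 and 3.95, 2.50 and 4.59 with hrGFP. It differed by 1.63 (adjusted p = 0.748 by limma), and by 2.34 (0.00663) without MyoD 5. Otud4, a deubiquitinating enzyme, was the one gene with a lower level in MyoD cells in that fit, at -1.49 (0.0258), against -1.16 (0.395) with all arrays. Its signals were 80.4, 68.9 and 237 with MyoD, 260, 206 and 337 with Myf5 and 138, 73.8 and 231 with hrGFP, and a second Otud4 probe set differed by 0.03. The 4 that no longer passed were Erbb3 (0.0517), Smyd1 (0.0517), the dimmer Mylpf probe set (0.0621) and Atp2a1 (0.16). The part that 3' bias of the MyoD 5 target has in the other values was not tested.

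**Figure D4:**
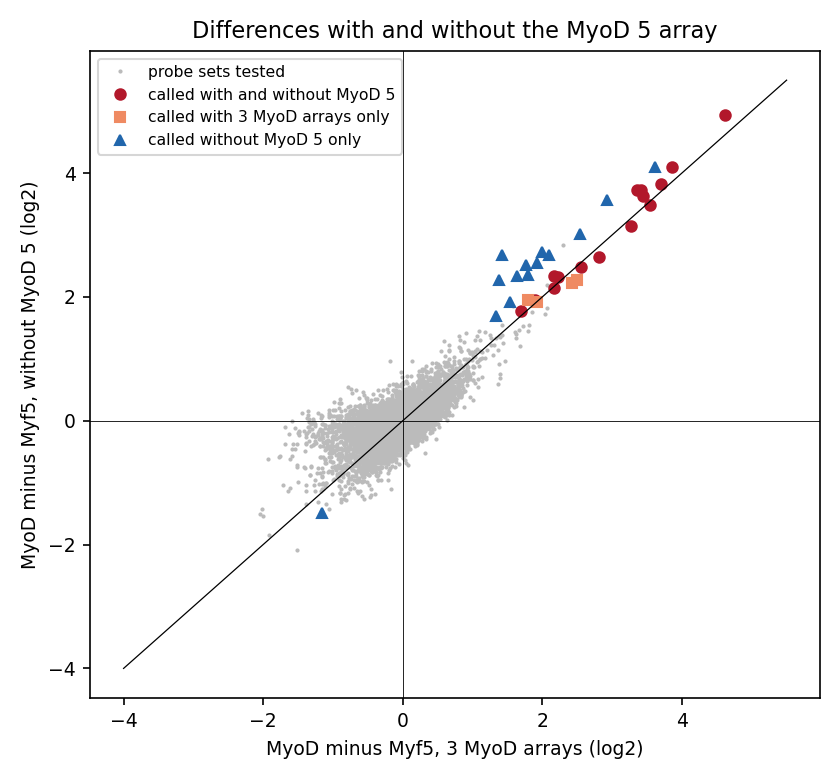
MyoD minus Myf5 difference (log2) of each tested probe set with 3 MyoD arrays (horizontal) and without MyoD 5 (vertical), with the line of equality. Of the called probe sets 15 were called both ways, 4 with 3 arrays only and 14 without MyoD 5 only, and many uncalled probe sets with negative differences move toward 0.

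MyoD and Myf5 bind E-boxes, so the stretch before the start of the called genes was read for them. RefSeq promoter sequences (build GRCm38.p6) were at hand for 14 of the 17 genes, and Tnnt3, Hspb2 and Erbb3 had none. The motif CANNTG, searched on both strands, was in the 250 bases before the start of 10 of the 14, against 66.2% of 32851 mouse promoters. Its form CAGCTG was in 5 of the 14 (Chrna1, Chrng, Myl1, Mylpf and Atp2a1), against 13.0% of all promoters, and in Chrna1 and Chrng it occurred at least 2 times, which 1.26% of all promoters did. The form CACCTG, read as CAGGTG on the other strand, was in 3 (Chrna1, Tnnc2 and Tnnt1), against 17.2%. Both forms also count as CANNTG. The MEF2 site matched in 0 of the 14 (2.92% of all) and the CArG box in 1, Actc1 (1.47%). A match is no evidence of binding, and no match says only that the letters are not in this window.

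4 of these windows are printed from 5′ to 3′ along the gene, with each CANNTG in capitals. Chrna1 (chr2:73580339-73580588, minus strand) and Chrng (chr1:87205561-87205810, plus strand) hold 3 each, Tnnc1 (chr14:31208062-31208311, plus strand) holds 2 of another form, and Actc1 (chr2:114052876-114053125, minus strand), the gene with the largest difference, holds none.
Chrna1: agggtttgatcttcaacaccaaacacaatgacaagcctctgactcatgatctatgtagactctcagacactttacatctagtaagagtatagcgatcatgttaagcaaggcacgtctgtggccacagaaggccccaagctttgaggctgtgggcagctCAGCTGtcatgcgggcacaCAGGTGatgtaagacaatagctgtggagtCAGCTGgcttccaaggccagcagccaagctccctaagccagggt
Chrng: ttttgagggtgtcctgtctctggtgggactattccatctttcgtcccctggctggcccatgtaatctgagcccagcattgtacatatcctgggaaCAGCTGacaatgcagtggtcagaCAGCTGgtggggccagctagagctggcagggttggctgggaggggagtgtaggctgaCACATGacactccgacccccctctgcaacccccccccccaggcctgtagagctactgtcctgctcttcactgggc
Tnnc1: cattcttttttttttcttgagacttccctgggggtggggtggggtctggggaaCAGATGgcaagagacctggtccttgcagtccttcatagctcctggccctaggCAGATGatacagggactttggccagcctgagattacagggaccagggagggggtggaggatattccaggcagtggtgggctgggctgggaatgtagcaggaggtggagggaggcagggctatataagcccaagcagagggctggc
Actc1: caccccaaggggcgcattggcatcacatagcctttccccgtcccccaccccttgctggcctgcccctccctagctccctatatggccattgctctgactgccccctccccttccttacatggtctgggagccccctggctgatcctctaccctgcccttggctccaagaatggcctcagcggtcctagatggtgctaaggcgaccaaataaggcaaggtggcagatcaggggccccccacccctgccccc

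**Figure D5:**
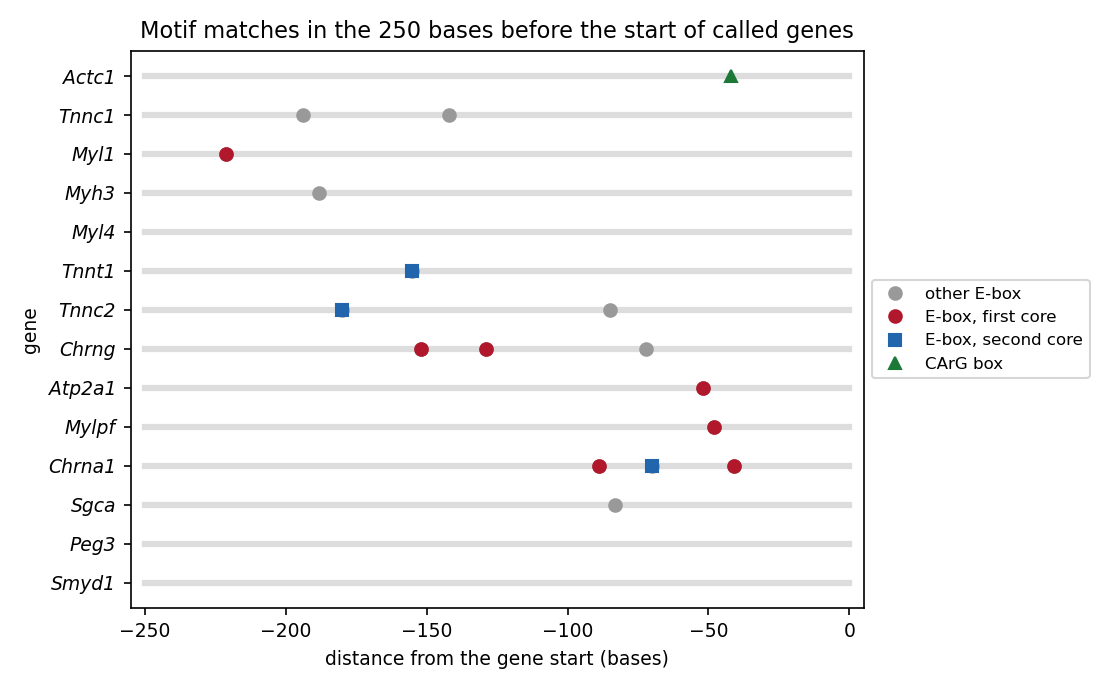
Motif matches in the 250 bases before the start of the 14 called genes with a promoter sequence, by distance from the start in bases; red circles are CAGCTG (first core), blue squares CACCTG or CAGGTG (second core), grey circles other CANNTG and the green triangle the CArG box. Chrna1 and Chrng hold 3 E-boxes each, and Actc1, Myl4, Peg3 and Smyd1 hold none.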

How the data were processed

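The deposited values are MAS5 intensity signals, 1 per probe set and array, per the submitters' processing notes. No version or scaling of MAS5 and no detection call is given in the sources used here. Per the labels, total RNA was prepared with RNeasy and biotin-labelled for the array MG_U74Av2. Samples were grouped by title. Trimmed mean signals (2% off each end) were 41.4 to 103. A pseudocount of 6.3 (25th percentile) was added, log2 values were quantile-normalized, and probe sets above a signal of 15.02 (40th percentile) in at least 3 of 12 arrays were kept (limma 3.58.1, R 4.3.3, statmod 1.5.0). One mean per group was fitted to the 12 arrays (8 residual degrees of freedom, variance trend), with Benjamini-Hochberg adjustment over 8485 probe sets. Chip lot and hybridization day, read from the experiment information files per the file headers, gave 3 array batches. On simulated data for this comparison (8485 probe sets) 18.2%, 79.1% and 80.6% of differences of size 1, 2 and 3 were recovered, with 8 false calls. The simulated noise was independent between arrays, with 1 spread per probe set. It held no bias of whole arrays like that of MyoD 5 and hrGFP 5, so the rates may not hold for these data. Of the probe sets, 10833 had 1 gene symbol, 396 several and 1193 none listed; 10817 matched RefSeq by gene number. Named were genes with 1 symbol: those called (up to 15 per direction), the 10 largest separated differences per direction, the MyoD family, up to 4 per list, and genes called only without MyoD 5 (up to 10 per direction). The comparison, its 25 gene lists and the alternatives were chosen with earlier results of these data known. The number of arrays limits the precision.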

Additional observations from a re-analysis of the deposited data

How the results depend on the processing

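The 19 called probe sets kept a positive difference under each of 27 alternatives in which they were tested. Of them, 4 (Actc1, Tnnc1, Tnnc2 and Tnnt1) passed whichever array was left out. Those fits kept the filter of the 12 arrays, which the Tnnt1 probe set met on its MyoD arrays alone. The number called was 11 with a filter on the mean of the 12 arrays, which tested 7409 probe sets, 9 with a pseudocount of 1, 9 with no pseudocount, 11 with the 6 MyoD and Myf5 arrays alone, 44 with array quality weights (39 higher, 5 lower) and 29 without MyoD 5 and hrGFP 5, an alternative added after seeing the data. The cause of these changes in number was not tested. Leaving out 1 array gave 4 to 29, and with the filter remade on 11 arrays without MyoD 5, also added later, 24. The other alternatives (no filter, a pseudocount at the 40th percentile, trimmed-mean scaling, no normalization, no variance trend, lot and day as a block or within the first) gave 16 to 23. A replicate block gave 18, of which 14 were among the 19; same-numbered deviations of MyoD and Myf5 arrays correlated at -0.007, 0.108 and 0.108, so the numbers were not taken as pairs. Signs of values near 0 turned. Myod1 was -0.04 with trimmed-mean scaling, -0.11 without normalization and -0.14 to 0.28 over the fits without 1 array, Myf5 was -0.36 to 0.16 over the same fits, and Myf6 was -0.42 within the first lot and day, -0.25 without MyoD 5 and hrGFP 5 and -0.25 to 0.51 without 1 array. Dim probe sets are limited by the pseudocount: Atp2a1 ranged from 1.64 to 4.46 and Sgca from 1.42 to 4.41 over the alternatives.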
